A study of Mus musculus with 24 samples.

Results

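The genes described are 34 genes of the cell cycle and of DNA replication, chosen by symbol out of the 48526 genes of the deposited count table, and all 34 were found. They were measured by RNA sequencing in the renal cortex of C57BL/6 mice that had been made diabetic with streptozotocin or not, and that drank PMX-53 or plain water, so that the effects of diabetes and of an oral inhibitor of the complement fragment C5a on kidney gene expression could be compared. Streptozotocin destroys pancreatic beta cells, which make insulin, and PMX-53 is a cyclic peptide that blocks the C5a receptor C5aR1. The 4 groups of 6 libraries each were diabetic PMX-53 (streptozotocin at 55 mg/kg on 5 days from 6 weeks of age, then PMX-53 at 2 mg/kg in the water), diabetic vehicle (the same streptozotocin and plain water), non-diabetic PMX-53 (citrate injections and the same PMX-53) and non-diabetic vehicle (citrate injections and plain water). Follow-up lasted 24 weeks in every group. The labels name separate samples, so p-values measure the spread between these samples, part of which may be technical.

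A cell enters the cycle when D-type cyclins release E2F transcription factors, which switch on genes for DNA synthesis. Replication origins are then loaded with the MCM helicase, opened by CDC45 and GINS, and copied with the sliding clamp PCNA and a supply of deoxynucleotides. B-type cyclins with CDK1, Aurora and Polo-like kinases drive entry into mitosis, in which kinesins, kinetochore proteins and the anaphase-promoting complex separate the chromosomes. Few cells of the adult kidney cycle at rest, and tubule cells are known to re-enter the cycle after injury. In bulk tissue, fewer cells expressing a gene and less of its RNA per cell cannot be told apart.

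The libraries held 10964992 to 22000895 counts, and 1 CPM (a count scaled to library size, with TMM factors) stood for 12.1 to 22.5 counts. After a filter on low counts, 15808 genes were tested, among them 29 of the 34. Proximal tubule markers summed to 9200 to 15464 CPM per library and podocyte markers to 145 to 288 CPM, so the defining markers of kidney cortex were present. The diabetic vehicle libraries stood apart as a group at single genes. They held 242 to 272 CPM of Nnt, a mitochondrial transhydrogenase gene, against 101 to 121 CPM in the other 18 libraries. Of Ide, an insulin-degrading protease gene, they held 62.2 to 76.5 CPM, against 111 to 169 CPM in the other 18. Whatever sets these libraries apart cannot be told apart from diabetes on vehicle, so the comparison under PMX-53, which uses none of them for its means, is given beside each call among the 34 genes. Within that group, replicate 4 held 5556 CPM of the androgen-regulated gene Kap, against 145 to 1007 CPM in the other 5.

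Levels between genes were compared per kilobase of exon (CPM per kb, mean over the 24 libraries). Ccnd1, which encodes cyclin D1 of the G1 phase, was the most abundant at 36.5 CPM per kb, followed by the clamp gene Pcna at 7.04 CPM per kb and the helicase genes Mcm7 at 3.21 and Mcm6 at 2.94 CPM per kb. The genes of mitosis were scarce. The highest of them, the proliferation marker Mki67, reached 0.667 CPM per kb, and Bub1, a spindle checkpoint kinase gene, was the lowest of all at 0.0560 CPM per kb. Scarce genes rest on few counts. Ccnb1 had 0 to 24 counts in any vehicle library, so that its fold changes carry wide errors.

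**Figure D1:**
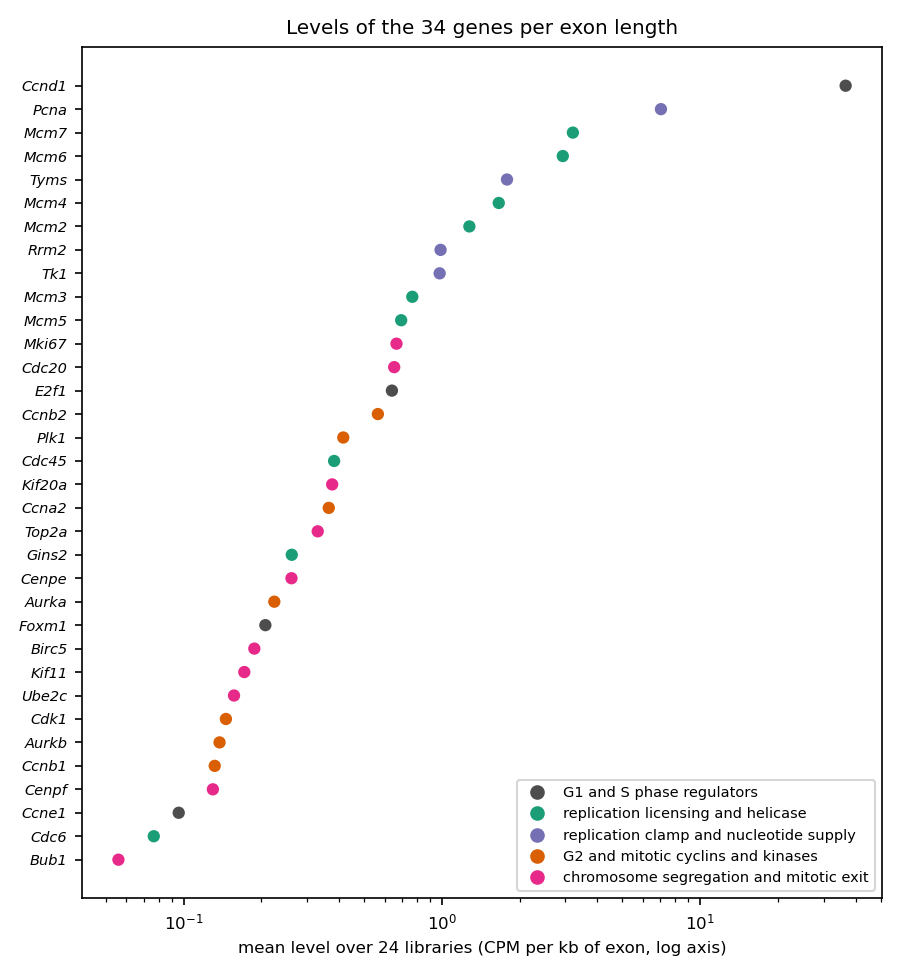
Mean level of the 34 genes over the 24 libraries, in CPM per kb of exon on a log axis, coloured by role. Ccnd1 (36.5) and Pcna (7.04) stand at the top, helicase genes follow, and most genes of mitosis lie under 1.

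Upstream sequence was matched for 27 of the 34 genes (RefSeq, GRCm38.p6). In the 250 bases before the RefSeq start, on either strand, the letters CCAAT, read by the factor NF-Y, were found in 21 of the 27 (77.8%) and in 33.8% of all 32851 upstream entries. The letters TTTGAA, the cell cycle homology region (CHR) of many G2 and mitotic promoters, were found in 9 of the 27 (33.3%) and in 16.0% of all entries. The letters TTTCCCGC or TTTGGCGC, a form of the E2F site, were found in 3 of the 27 (11.1%), Cdc6, Mcm5 and Mcm6, and in 1.30% of all entries. For each of the 27 genes only the entry with the lowest start coordinate was used, whereas the 32851 entries were not reduced in this way. The entries were not matched for base composition, and a match is a description of letters, not a site of binding. Among the 9 matched genes that were higher with diabetes on vehicle, 7 held CCAAT (77.8%), 2 held TTTGAA and 0 held the E2F letters.

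The sequences below are shown to set the gene that fell with diabetes on vehicle, Tk1, beside 5 that rose, the largest rises among matched genes whose window has bases outside the annotated gene (that of E2f1 lies inside it and is not shown). Capitals mark CCAAT and TTTGAA, and bases inside the outermost gene start of the GENCODE annotation are left out. All run 5′ to 3′ along the gene. Ccnb1 is chr13:100786571-100786736 on the minus strand, Birc5 chr11:117848987-117849236 on the plus strand, Cdc20 chr4:118437353-118437593 on the minus strand, Rrm2 chr12:24708004-24708240 on the plus strand, Cenpf chr1:189688087-189688336 on the minus strand and Tk1 chr11:117826093-117826264 on the minus strand.
Ccnb1: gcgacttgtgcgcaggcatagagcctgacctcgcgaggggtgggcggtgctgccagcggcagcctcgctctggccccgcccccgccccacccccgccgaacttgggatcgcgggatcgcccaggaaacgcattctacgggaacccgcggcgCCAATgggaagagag
Birc5: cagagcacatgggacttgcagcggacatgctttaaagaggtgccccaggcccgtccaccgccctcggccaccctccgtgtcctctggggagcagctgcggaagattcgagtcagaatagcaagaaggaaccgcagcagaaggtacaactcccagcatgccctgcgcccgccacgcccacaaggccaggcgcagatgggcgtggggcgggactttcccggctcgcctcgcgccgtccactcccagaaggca
Cdc20: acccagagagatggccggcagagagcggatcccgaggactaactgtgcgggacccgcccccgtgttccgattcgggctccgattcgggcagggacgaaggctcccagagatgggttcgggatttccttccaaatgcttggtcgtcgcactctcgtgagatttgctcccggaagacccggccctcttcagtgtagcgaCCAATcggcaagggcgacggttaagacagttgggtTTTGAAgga
Rrm2: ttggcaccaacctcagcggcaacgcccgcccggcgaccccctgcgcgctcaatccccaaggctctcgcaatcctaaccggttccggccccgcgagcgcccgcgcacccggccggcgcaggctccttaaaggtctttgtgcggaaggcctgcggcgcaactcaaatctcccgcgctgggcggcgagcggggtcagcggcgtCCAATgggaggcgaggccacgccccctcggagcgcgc
Cenpf: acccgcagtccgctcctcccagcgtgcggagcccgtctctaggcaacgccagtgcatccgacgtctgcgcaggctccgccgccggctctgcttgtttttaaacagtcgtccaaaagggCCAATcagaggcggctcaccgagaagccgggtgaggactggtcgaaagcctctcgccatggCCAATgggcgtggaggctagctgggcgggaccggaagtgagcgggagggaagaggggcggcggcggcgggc
Tk1: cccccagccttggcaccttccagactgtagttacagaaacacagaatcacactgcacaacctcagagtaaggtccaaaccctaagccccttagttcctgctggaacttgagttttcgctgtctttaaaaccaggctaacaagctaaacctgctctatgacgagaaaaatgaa
In Cdc20 the CCAAT shown began 53 bases and the TTTGAA 18 bases before the RefSeq start. Inside the part left out, a further CCAAT of Cdc20 began 8 bases before that start. In Rrm2 the CCAAT began 50 bases before it, and in Cenpf the pair of CCAAT matches began 132 and 71 bases before it. Ccnb1 held its CCAAT at 99 bases and a further one at 67 bases, inside the part left out, 32 bases apart. The windows of Tk1, which fell, and of Birc5 and E2f1, which rose, held none of the letters searched. As the window of E2f1 lies inside the annotated gene, the bases before its outermost start were not searched.

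With diabetes on vehicle, several regulators of the cycle and genes of mitosis were higher, and none of the 6 MCM helicase genes was called. Of the 29 tested genes, 13 were higher and 1, Tk1, was lower (edgeR quasi-likelihood test, adjusted p under 0.05), against 20.4% of all tested genes higher and 19.9% lower. The share called in either direction was 48.3% of the 29 and 40.3% of all genes tested. The number of calls was thus near the background, but their split by direction was not, with 13 higher and 1 lower. Of the calls over all genes, 3223 were higher and 3140 lower, against 1802 higher and 3982 lower without scaling beyond library totals. The median log2 fold change was 0.49 over the 29 and -0.0014 over all genes tested, and 25 of the 29 were positive. Under PMX-53, the same comparison of diabetic with non-diabetic mice called 3 of the 29 higher, Ccnd1, E2f1 and Cenpf, and 0 lower, against 5.52% of all genes higher and 4.52% lower. There the median was 0.35 and 26 of the 29 were positive. The comparisons are shown side by side for each gene in the plot of log2 fold changes.

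**Figure D2:**
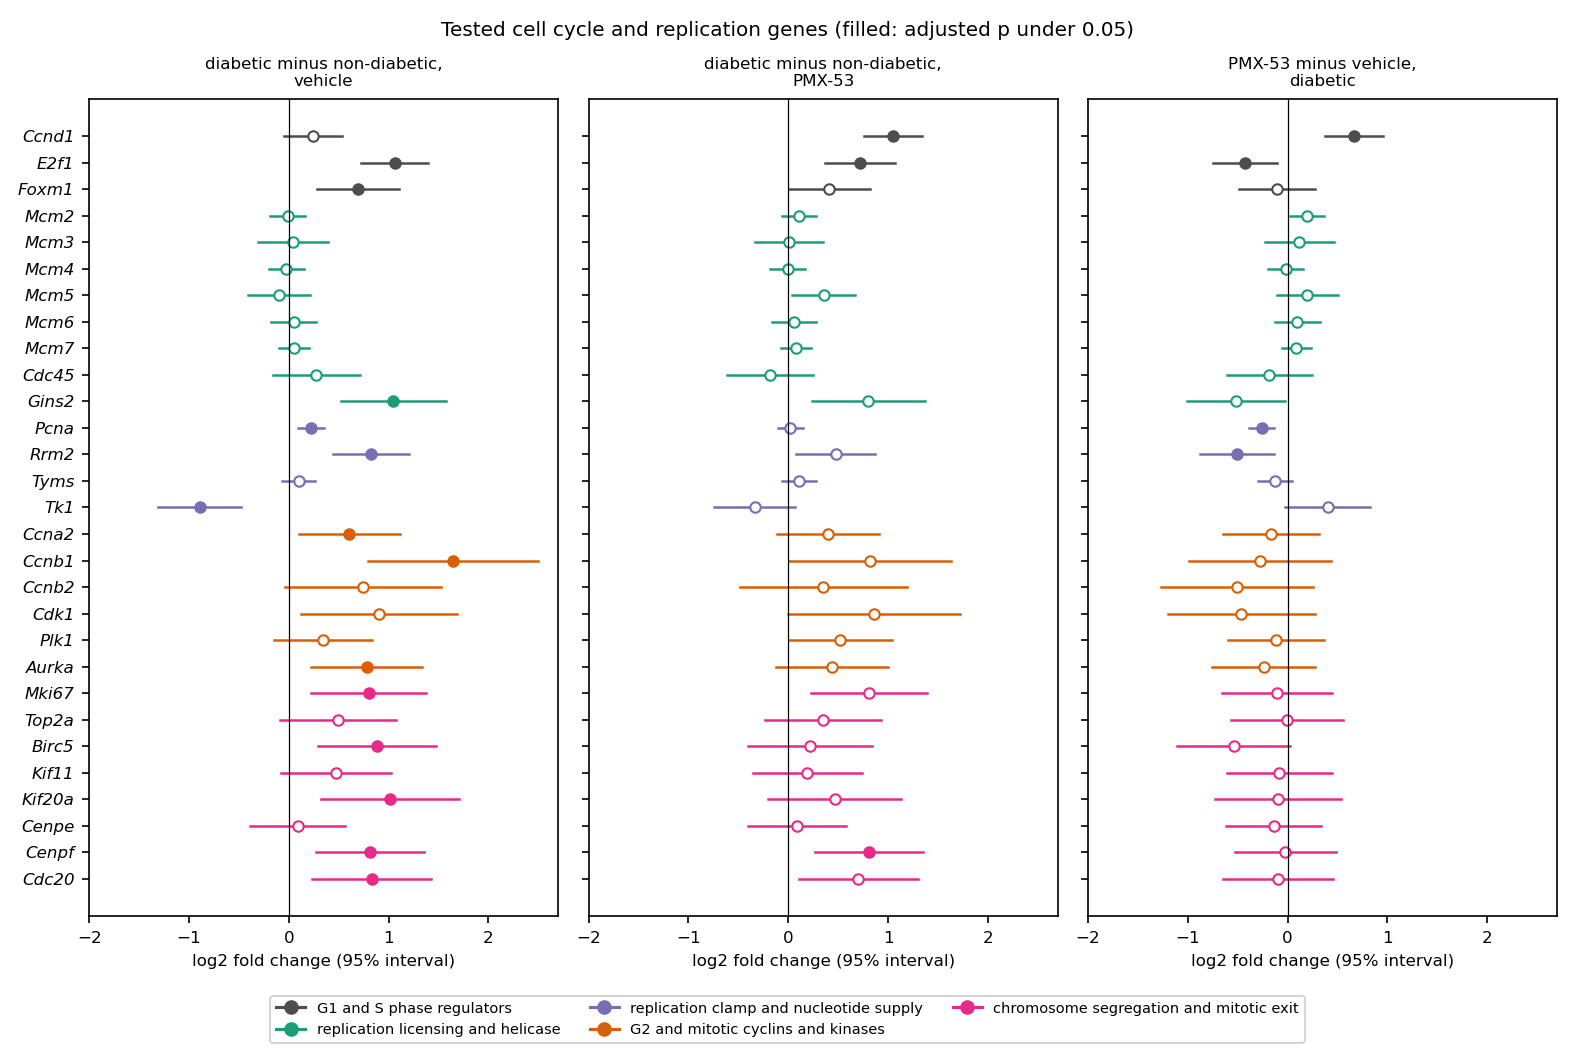
Log2 fold changes with 95% intervals of the 29 tested genes, coloured by role and filled where the adjusted p is under 0.05, for diabetes on vehicle (left), diabetes on PMX-53 (middle) and PMX-53 in diabetic mice (right). On vehicle 13 genes are filled to the right of 0 and Tk1 to the left, and the 6 MCM genes lie near 0. None of the 6 is filled in any panel, and Ccnd1 is the filled point to the right of 0 for PMX-53 in diabetic mice.

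Of the 4 regulators of G1 and S phase, E2f1 and Foxm1 were higher with diabetes on vehicle, Ccnd1 was not called and Ccne1 was too scarce to test. E2f1 (ENSMUSG00000027490, chromosome 2, 154559407 to 154569892), the gene of a transcription factor that activates DNA synthesis genes, lay at 2.53 to 3.42 CPM in diabetic vehicle libraries (median 3.16) and at 0.944 to 2.18 CPM in non-diabetic vehicle libraries (median 1.40). The groups did not overlap, as for 4 of the 29 and 7.86% of all tested genes in this direction, and the difference was 2.09-fold (log2 fold change 1.06 ± 0.16, edgeR adjusted p = 1.12e-05). On PMX-53, E2f1 lay at 1.86 to 2.58 CPM in diabetic libraries and at 1.04 to 1.90 CPM in non-diabetic libraries, a log2 fold change of 0.72 ± 0.17 (edgeR adjusted p = 0.00677), with every diabetic library above the non-diabetic mean. E2f1 was thus called higher with diabetes both with the diabetic vehicle libraries and without them, though not on PMX-53 once libraries were thinned to 1 total (edgeR adjusted p = 0.0582).

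Foxm1 (ENSMUSG00000001517, chromosome 6, 128362967 to 128376146) encodes a forkhead factor that activates genes of G2 and mitosis. It lay at 0.977 to 1.88 CPM in diabetic vehicle libraries (median 1.48) and at 0.586 to 1.21 CPM in non-diabetic vehicle libraries (median 0.931). All 6 diabetic libraries were above the non-diabetic mean although the groups overlapped, and the log2 fold change was 0.69 ± 0.20 (edgeR adjusted p = 0.00642). On PMX-53 it had a median of 1.33 CPM in diabetic and 1.04 CPM in non-diabetic libraries, with a log2 fold change of 0.41 ± 0.20 that did not pass (edgeR adjusted p = 0.195). Ccnd1, the gene of cyclin D1, differed by 0.24 on the log2 scale with diabetes on vehicle, with a 95% interval of -0.05 to 0.54 (edgeR adjusted p = 0.175). It was called higher in the fit without non-diabetic vehicle replicate 3, and is taken up with PMX-53.

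**Figure D3:**
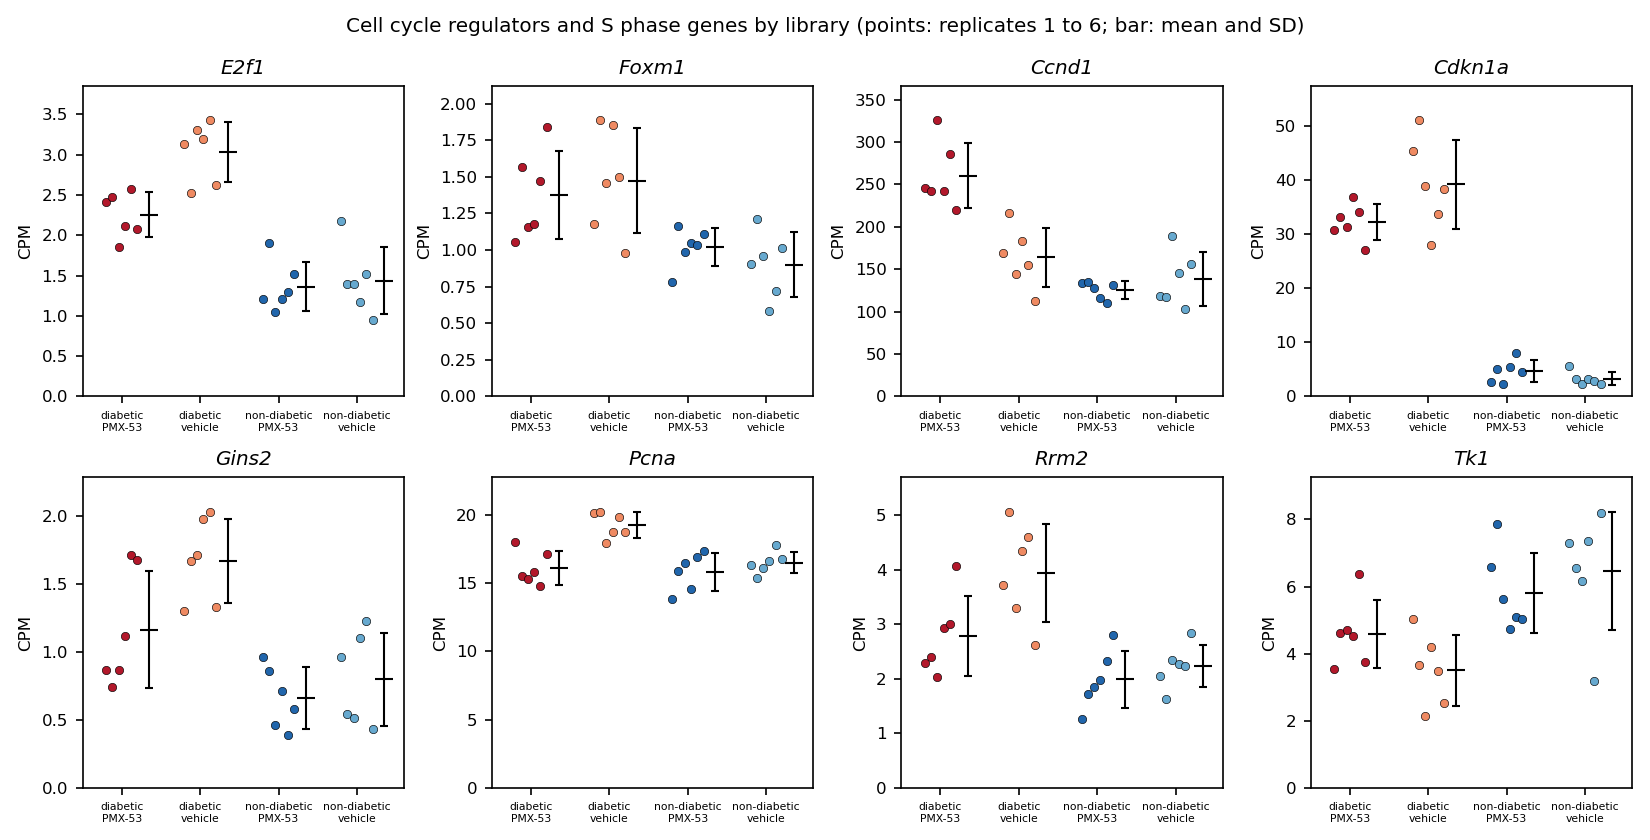
CPM by library of E2f1, Foxm1, Ccnd1, Cdkn1a, Gins2, Pcna, Rrm2 and Tk1 in the 4 groups of 6 libraries (points, replicates 1 to 6 from left to right, with mean and SD beside them). E2f1, Gins2 and Pcna are higher in every diabetic vehicle library than in any non-diabetic vehicle library, Ccnd1 is highest in diabetic PMX-53 libraries (220.3 to 325 CPM), and Tk1 is lowest on average in diabetic vehicle libraries.

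Of the 8 tested licensing and helicase genes, Gins2 alone was called with diabetes on vehicle (12.5%, against 40.3% of all genes tested). Mcm2 to Mcm7, the 6 genes of the ring that unwinds DNA, had log2 fold changes of -0.10 to 0.05 with diabetes on vehicle, and their 95% intervals lay between -0.41 and 0.39. Mcm2, for example, lay at 7.54 to 9.71 CPM in diabetic vehicle libraries (median 8.38) and at 7.12 to 10.2 CPM in non-diabetic vehicle libraries (median 8.51). None of the 6 was called in any of the comparisons. Mcm2 came nearest, with a log2 fold change of 0.19 ± 0.08 for PMX-53 in diabetic mice (edgeR adjusted p = 0.0899), and was called there without scaling beyond library totals. On PMX-53 the diabetic mean of Mcm5 was 1.29 times the non-diabetic mean. For Mcm5 and Mcm2, 6 of 6 diabetic libraries were above the non-diabetic mean there. For Mcm3, Mcm4, Mcm6 and Mcm7 it was 2 to 5 of 6.

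Gins2 (ENSMUSG00000031821, chromosome 8, 120578633 to 120589304), a subunit gene of the GINS complex that joins the MCM ring to form the active helicase, lay at 1.30 to 2.03 CPM in diabetic vehicle libraries (median 1.69) and at 0.436 to 1.23 CPM in non-diabetic vehicle libraries (median 0.757). Like those of E2f1, the groups did not overlap (7.86% of all tested genes), and the log2 fold change was 1.05 ± 0.25 (edgeR adjusted p = 0.00173). On PMX-53, Gins2 lay at 0.743 to 1.72 CPM in diabetic and at 0.387 to 0.965 CPM in non-diabetic libraries, and its log2 fold change of 0.80 ± 0.27 did not pass (edgeR adjusted p = 0.0622). Gse1, on the opposite strand, shares 2758 of the 4097 exon bases of Gins2 in the annotation, and its own log2 fold change with diabetes on vehicle was -0.26 ± 0.08 (edgeR adjusted p = 0.0100). Over all libraries Gse1 averaged 39.0 CPM and Gins2 1.07 CPM. The part of Gse1 in the Gins2 counts was not tested. Cdc45, the helicase's other partner gene, had a log2 fold change of 0.28 ± 0.21 (edgeR adjusted p = 0.308).

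The clamp and the enzymes of nucleotide supply moved in both directions. Pcna (ENSMUSG00000027342, chromosome 2, 132249162 to 132253314), the sliding clamp gene, lay at 17.9 to 20.2 CPM in diabetic vehicle libraries (median 19.3) and at 15.4 to 17.8 CPM in non-diabetic vehicle libraries (median 16.5). These groups also did not overlap (7.86% of all tested genes), and the difference was small, with a log2 fold change of 0.22 ± 0.06 (edgeR adjusted p = 0.00507). On PMX-53 the difference was 0.02 ± 0.06 on the log2 scale (edgeR adjusted p = 0.872), with a median of 15.6 CPM in diabetic and 16.2 CPM in non-diabetic libraries.

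Rrm2 (ENSMUSG00000020649, chromosome 12, 24708241 to 24714146) encodes the regulated subunit of ribonucleotide reductase, which makes deoxynucleotides. It lay at 2.62 to 5.06 CPM in diabetic vehicle libraries (median 4.03) and at 1.64 to 2.83 CPM in non-diabetic vehicle libraries (median 2.26). All 6 diabetic libraries were above the non-diabetic mean, and the log2 fold change was 0.82 ± 0.19 (edgeR adjusted p = 8.94e-04). On PMX-53 it was 0.47 ± 0.19 (edgeR adjusted p = 0.124), again with 6 of 6 diabetic libraries above the non-diabetic mean. Tyms, the thymidylate synthase gene, had a log2 fold change of 0.10 on vehicle, with a 95% interval of -0.07 to 0.27.

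Tk1 (ENSMUSG00000025574, chromosome 11, 117815526 to 117826092), the gene of the thymidine kinase of the salvage pathway, was the one tested gene that fell. It lay at 2.16 to 5.02 CPM in diabetic vehicle libraries (median 3.57) and at 3.18 to 8.21 CPM in non-diabetic vehicle libraries (median 6.94). All 6 diabetic libraries were below the non-diabetic mean, and the log2 fold change was -0.89 ± 0.20 (edgeR adjusted p = 9.05e-04). On PMX-53 it was -0.34 ± 0.20 (edgeR adjusted p = 0.308). The neighbouring gene Afmid, on the opposite strand, shares 83 of the 5198 exon bases of Tk1 and fell as well, with a log2 fold change of -1.16 ± 0.16 (edgeR adjusted p = 4.82e-06). Its part in the Tk1 counts was not tested.

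Of the 6 tested cyclin and kinase genes of G2 and mitosis, 3 were higher with diabetes on vehicle and 0 were lower. Ccnb1 (ENSMUSG00000041431, chromosome 13, 100778650 to 100786570), the gene of the main mitotic cyclin, lay at 0.522 to 1.29 CPM in diabetic vehicle libraries (median 0.782, 8 to 24 counts) and at 0 to 0.441 CPM in non-diabetic vehicle libraries (median 0.312, 0 to 6 counts). No library of one group overlapped the other (7.86% of all tested genes), and the difference was 3.13-fold (log2 fold change 1.64 ± 0.42, edgeR adjusted p = 0.00242). On PMX-53 it lay at 0.330 to 1.36 CPM in diabetic and at 0.129 to 0.715 CPM in non-diabetic libraries, with a log2 fold change of 0.82 ± 0.40 that did not pass (edgeR adjusted p = 0.198).

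Aurka (ENSMUSG00000027496, chromosome 2, 172356190 to 172370535), a centrosome kinase gene of spindle assembly, lay at 0.522 to 0.957 CPM in diabetic vehicle libraries (median 0.734) and at 0.294 to 0.547 CPM in non-diabetic vehicle libraries (median 0.428). Its log2 fold change was 0.78 ± 0.27 (edgeR adjusted p = 0.0223), with all 6 diabetic libraries above the non-diabetic mean. It lost the call without non-diabetic vehicle replicate 3 (edgeR adjusted p = 0.0518). Ccna2 (ENSMUSG00000027715, chromosome 3, 36564865 to 36572150), the gene of cyclin A2 of S and G2 phase, was at the threshold. Its log2 fold change was 0.61 ± 0.25 (edgeR adjusted p = 0.0498), and it passed in 5 of the 12 fits that left out one of the libraries compared and in 3 of 10 other alternatives. Its level was 0.799 to 2.58 CPM in diabetic vehicle libraries and 0.956 to 1.45 CPM in non-diabetic vehicle libraries, so the lowest library of all was a diabetic one. Exosc9, on the opposite strand, shares 510 of the 4083 exon bases of Ccna2 and averaged 11.9 CPM over all libraries. It rose with diabetes on vehicle (log2 fold change 0.40 ± 0.08, edgeR adjusted p = 4.19e-04). The part of Exosc9 in the Ccna2 counts was not tested.

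Cdk1, the gene of the kinase that cyclin B1 activates, lay at 0.577 to 1.83 CPM in diabetic vehicle libraries (median 1.03) and at 0.260 to 0.939 CPM in non-diabetic vehicle libraries (median 0.547). Its log2 fold change of 0.91 ± 0.38 did not pass (edgeR adjusted p = 0.0584), although all 6 diabetic libraries were above the non-diabetic mean. Ccnb2, the second B-type cyclin gene, had a log2 fold change of 0.74 ± 0.38 (edgeR adjusted p = 0.124) and Plk1, a Polo-like kinase gene, one of 0.34 ± 0.24 (edgeR adjusted p = 0.265). On PMX-53, 0 of these 6 genes were called, with log2 fold changes of 0.35 to 0.86, among them 0.44 ± 0.27 for Aurka and 0.40 ± 0.25 for Ccna2.

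Genes of chromosome segregation had the most calls by number, but not the largest share. Of 8 tested, Mki67, Birc5, Kif20a, Cenpf and Cdc20 were higher with diabetes on vehicle and 0 were lower, with a median log2 fold change of 0.81. The share called was 62.5%, against 40.3% of all genes tested. In the other roles it was 75% (clamp and nucleotides), 66.7% (G1 and S phase regulators), 50% (mitotic cyclins and kinases) and 12.5% (helicase). Mki67 (ENSMUSG00000031004, chromosome 7, 135689784 to 135716361), the gene of the Ki-67 protein that coats mitotic chromosomes and marks cycling cells, lay at 3.77 to 13.2 CPM in diabetic vehicle libraries (median 9.25) and at 3.56 to 6.47 CPM in non-diabetic vehicle libraries (median 4.90). Of the diabetic libraries 5 of 6 were above the non-diabetic mean, and the log2 fold change was 0.80 ± 0.28 (edgeR adjusted p = 0.0259). On PMX-53, Mki67 lay at 4.70 to 15.2 CPM in diabetic libraries (median 7.30) and at 3.65 to 6.25 CPM in non-diabetic libraries (median 4.47), with a log2 fold change of 0.81 ± 0.28 that did not pass (edgeR adjusted p = 0.0718).

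Cenpf (ENSMUSG00000026605, chromosome 1, 189640606 to 189688086), a kinetochore gene, was called in both. It lay at 1.42 to 3.71 CPM in diabetic vehicle libraries and at 1.10 to 1.89 CPM in non-diabetic vehicle libraries (log2 fold change 0.81 ± 0.26, edgeR adjusted p = 0.0157). On PMX-53 it lay at 1.59 to 4.79 CPM in diabetic and at 0.921 to 2.10 CPM in non-diabetic libraries (log2 fold change 0.81 ± 0.26, edgeR adjusted p = 0.0491). The groups overlapped in both comparisons. The second call was at the threshold. It was kept in 7 of 24 fits that left out 1 library, and in 4 of the 12 that left out one of the libraries compared (edgeR adjusted p = 0.0282 to 0.166, the highest without diabetic PMX-53 replicate 6), and it was lost in 5 of 10 other alternatives (adjusted p = 0.0541 to 0.0751 there).

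Cdc20 (ENSMUSG00000006398, chromosome 4, 118432901 to 118437352), the activator gene of the anaphase-promoting complex, lay at 0.979 to 2.48 CPM in diabetic vehicle libraries (median 1.39) and at 0.650 to 1.10 CPM in non-diabetic vehicle libraries (median 0.846), with a log2 fold change of 0.83 ± 0.29 (edgeR adjusted p = 0.0236). Kif20a, a kinesin gene of cytokinesis, lay at 1.17 to 3.34 CPM in diabetic vehicle and at 0.604 to 1.96 CPM in non-diabetic vehicle libraries, with a log2 fold change of 1.01 ± 0.34 (edgeR adjusted p = 0.0187). For both genes all 6 diabetic libraries were above the non-diabetic mean. Kif20a shares 1271 of its 4338 exon bases with Cdc23 on the opposite strand, which had a log2 fold change of 0.00 ± 0.06. Over all libraries Cdc23 averaged 21.2 CPM and Kif20a 1.63 CPM. Cdc20 shares 53 of its 1868 exon bases with Elovl1 on the opposite strand (log2 fold change 0.05 ± 0.09). Elovl1 averaged 45.3 CPM and Cdc20 1.22 CPM. The parts of Cdc23 and Elovl1 in these counts were not tested. Birc5 (ENSMUSG00000017716, chromosome 11, 117849251 to 117855743), which encodes survivin of the chromosomal passenger complex, lay at 0.326 to 1.23 CPM in diabetic vehicle and at 0.289 to 0.735 CPM in non-diabetic vehicle libraries (log2 fold change 0.88 ± 0.29, edgeR adjusted p = 0.0162). None of Cdc20, Kif20a and Birc5 was called with diabetes on PMX-53. There the log2 fold change was 0.70 ± 0.29 for Cdc20 (edgeR adjusted p = 0.128), 0.47 ± 0.32 for Kif20a (adjusted p = 0.401) and 0.22 ± 0.30 for Birc5 (adjusted p = 0.708).

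Several of these calls leaned on 1 library. Without diabetic vehicle replicate 2, the adjusted p (edgeR) was 0.0735 for Mki67, 0.0587 for Kif20a, 0.0782 for Cdc20 and 0.133 for Ccna2, and 9 genes were higher. Mki67 also lost its call without non-diabetic vehicle replicate 1 (adjusted p = 0.0614), and Cdc20 without diabetic vehicle replicate 4 (adjusted p = 0.0515) or non-diabetic vehicle replicate 5 (adjusted p = 0.0504). Other settings also ended calls with diabetes on vehicle. Without scaling beyond library totals the adjusted p (edgeR) was 0.262 for Pcna, 0.0569 for Aurka and 0.0635 for Mki67, and without a filter on low counts it was 0.0538 for Aurka and 0.0546 for Mki67. In thinned libraries it was 0.0811 for Foxm1, and with limma voom and sample weights it was 0.0531 for Cdc20, 0.0561 for Birc5 and 0.0569 for Mki67.

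Top2a, the topoisomerase gene that untangles chromosomes, lay at 1.76 to 5.19 CPM in diabetic vehicle libraries (median 3.40) and at 1.81 to 3.53 CPM in non-diabetic vehicle libraries (median 2.24), and its log2 fold change of 0.49 ± 0.28 did not pass (edgeR adjusted p = 0.172), nor did that of 0.35 ± 0.28 on PMX-53 (adjusted p = 0.476). The spindle kinesin gene Kif11 had a log2 fold change of 0.47 ± 0.27 (edgeR adjusted p = 0.168) and the kinetochore kinesin gene Cenpe one of 0.09, with a 95% interval of -0.39 to 0.57.

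**Figure D4:**
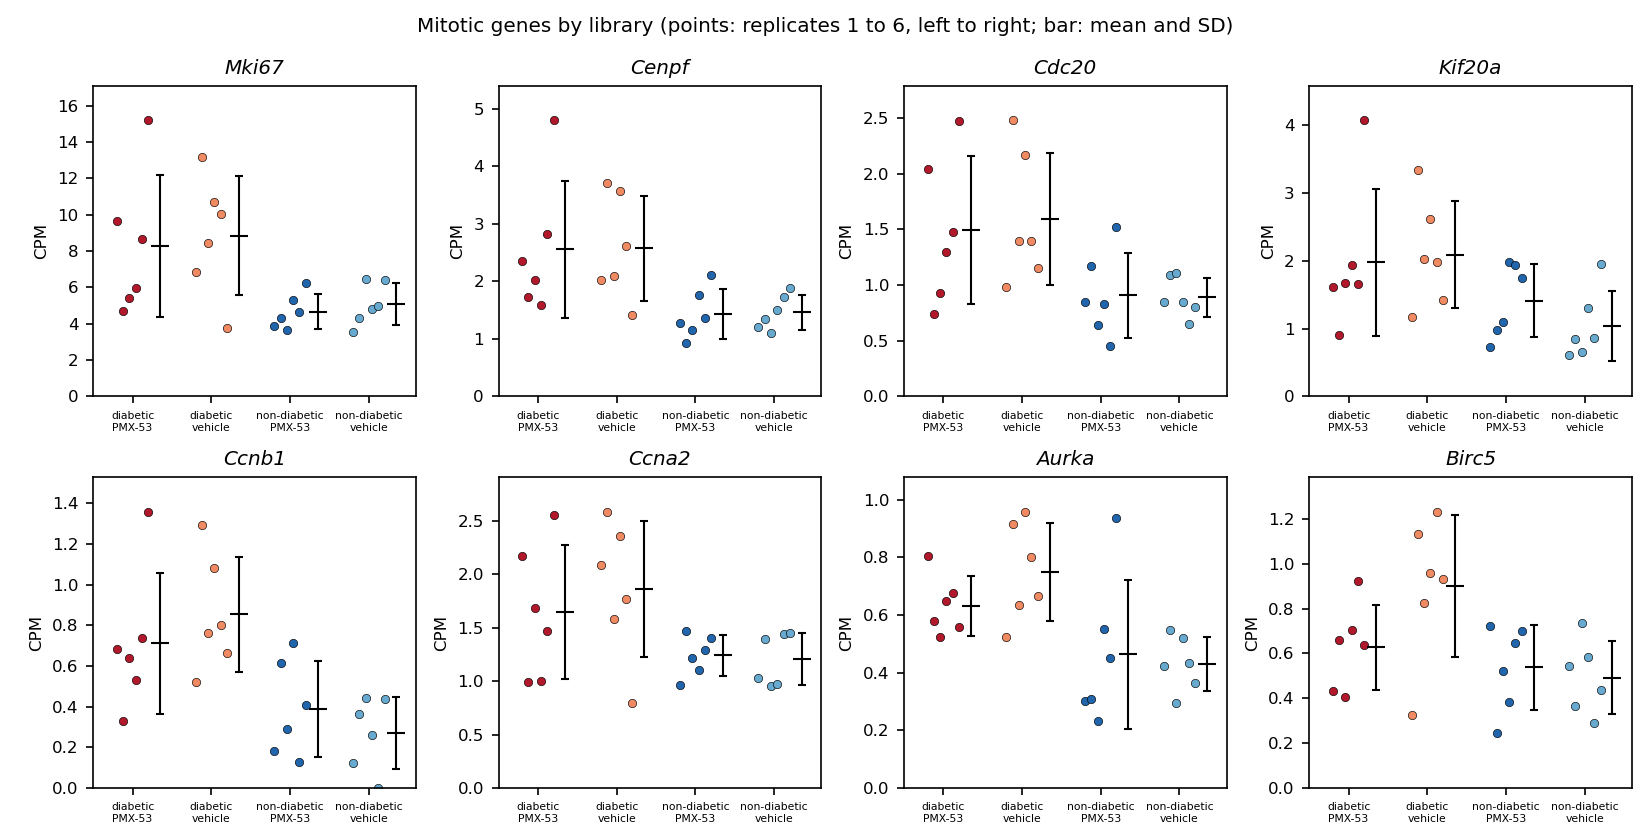
CPM by library of 8 genes of G2 and mitosis in the 4 groups of 6 libraries (points, replicates 1 to 6 from left to right, with mean and SD beside them). In most panels diabetic PMX-53 replicate 6 and diabetic vehicle replicate 2 are the highest points of their groups. The non-diabetic libraries lie lower on average and closer together, and in most panels the lowest diabetic libraries lie among or below them.

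The 5 genes too scarce to test had 0 to 19 counts per library. Ccne1, the cyclin E1 gene of S phase entry, averaged 0.214 ± 0.130 CPM in diabetic PMX-53, 0.371 ± 0.122 in diabetic vehicle, 0.179 ± 0.0945 in non-diabetic PMX-53 and 0.256 ± 0.190 in non-diabetic vehicle libraries (SD, n = 6 each). Cdc6, a loader of the helicase, averaged 0.366 to 0.429 CPM over the 4 groups, and Aurkb, the kinase gene of the passenger complex, 0.362 to 0.466 CPM. Bub1 averaged 0.398 ± 0.234 CPM in diabetic PMX-53, 0.240 ± 0.175 in diabetic vehicle, 0.170 ± 0.148 in non-diabetic PMX-53 and 0.167 ± 0.0675 in non-diabetic vehicle libraries. Ube2c, the ubiquitin-conjugating enzyme gene of mitotic exit, averaged 0.414 ± 0.370 CPM in diabetic PMX-53, 0.536 ± 0.272 in diabetic vehicle, 0.322 ± 0.153 in non-diabetic PMX-53 and 0.360 ± 0.0928 in non-diabetic vehicle libraries. The spread within groups was about as large as the differences between them for these genes.

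PMX-53 in diabetic mice was compared with vehicle to ask what the inhibitor changed in diabetic kidneys. Ccnd1 was higher, and E2f1, Pcna and Rrm2 were lower, which makes 1 of 29 higher and 3 lower, against 13.9% of all genes higher and 13.5% lower. The share called was thus 13.8% of the 29 and 27.3% of all genes tested. No gene of G2 or mitosis was called, and the 14 tested had log2 fold changes of -0.54 to -0.0064. This comparison shares the diabetic vehicle libraries with that of diabetes on vehicle, so opposite directions in the 2 are not independent. Whatever sets the diabetic vehicle libraries apart, as at Nnt and Ide, cannot be told apart from PMX-53 here or in the interaction. This holds for the genes of the other pathway lists as well.

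Ccnd1 (ENSMUSG00000070348, chromosome 7, 144929931 to 144939925) lay at 220.3 to 325 CPM in diabetic PMX-53 libraries (median 244) and at 113 to 217 CPM in diabetic vehicle libraries (median 162). No library of one group overlapped the other, which held in this direction for 1 of the 29 and for 3.92% of all genes tested. The difference was 1.59-fold (log2 fold change 0.67 ± 0.14, edgeR adjusted p = 0.00117). In non-diabetic mice Ccnd1 lay at 109.7 to 135 CPM on PMX-53 (median 129.9) and at 104 to 189 CPM on vehicle (median 132), with a log2 fold change of -0.14 ± 0.14 (edgeR adjusted p = 0.906). The difference between these effects, the interaction, was 0.81 ± 0.20 on the log2 scale (edgeR adjusted p = 0.0138). With diabetes on PMX-53 its log2 fold change was 1.05 ± 0.14 (edgeR adjusted p = 4.57e-05), again with no overlap of groups, as for 2.97% of all genes in this direction. The gene LTO1 shares 1100 of the 4709 exon bases of Ccnd1 on the opposite strand, and its log2 fold change was 0.01 ± 0.08 with PMX-53 in diabetic mice.

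E2f1 lay at 1.86 to 2.58 CPM in diabetic PMX-53 libraries, against 2.53 to 3.42 CPM in diabetic vehicle libraries, and fell by 0.42 ± 0.15 on the log2 scale (edgeR adjusted p = 0.0415). Pcna lay at 14.7 to 18.0 CPM in diabetic PMX-53 libraries, against 17.9 to 20.2 CPM in diabetic vehicle libraries, and fell by 0.26 ± 0.06 (edgeR adjusted p = 0.00259). For both genes 6 of 6 libraries on PMX-53 were below the vehicle mean, and the groups overlapped at their edges. Rrm2 lay at 2.03 to 4.07 CPM in diabetic PMX-53 libraries, against 2.62 to 5.06 CPM in diabetic vehicle libraries, and fell by 0.50 ± 0.18 (edgeR adjusted p = 0.0384), with 5 of 6 libraries below the vehicle mean. Of the 12 fits that left out one of the libraries compared, the calls of E2f1 and Rrm2 were each kept in 4 (adjusted p = 0.0315 to 0.0963 for E2f1 and 0.0109 to 0.101 for Rrm2), whereas those of Ccnd1 and Pcna were kept in all 12. Without scaling beyond library totals, E2f1, Pcna and Rrm2 all lost the call, and 3586 of all genes were higher and 924 lower, against 2190 and 2127 with it. E2f1 also lost it without a filter on low counts (edgeR adjusted p = 0.0825) and in thinned libraries (adjusted p = 0.0983), and Rrm2 when only these 2 groups were fitted (adjusted p = 0.0593). For Gins2 the log2 fold change was -0.52 ± 0.24 (edgeR adjusted p = 0.111) and Tk1 one of 0.40 ± 0.21 (edgeR adjusted p = 0.155).

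In non-diabetic mice, PMX-53 against vehicle called 0 of the 29 genes, and 0% of all genes tested (edgeR). Of the 29, 0 had an unadjusted p under 0.05, against 1142 of all 15808, and DESeq2 called 4 genes in all and none of the 29. The smallest adjusted p (edgeR) among the 29 was 0.784, for Mcm5. Over the 29 genes the intervals reached a median of 0.49 on the log2 scale to either side. They were wider for the scarce genes of mitosis. The median was 0.73 for the 6 tested cyclin and kinase genes of G2 and mitosis and 0.61 for the 8 of chromosome segregation. In the other roles it was 0.27 to 0.37. Changes of the scarce genes smaller than their intervals were thus not detectable at this depth. The interaction called 1 of the 29 positive, Ccnd1, and 0 negative (3.45% in all), against 4.66% of all genes positive, 4.76% negative and 9.42% in all.

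Libraries of 1 group differed widely at the genes of mitosis. The 17 genes of G2 and mitosis summed to 18.2 to 50.4 CPM per library in diabetic PMX-53 (median 26.3), 18.6 to 45.8 CPM in diabetic vehicle (median 31.5), 16.8 to 25.6 CPM in non-diabetic PMX-53 (median 18.7) and 15.8 to 25.0 CPM in non-diabetic vehicle libraries (median 19.6). The lowest diabetic libraries lay among the non-diabetic ones, and the coefficient of variation was 40.3% in diabetic PMX-53, 33.6% in diabetic vehicle, 16.8% in non-diabetic PMX-53 and 18.0% in non-diabetic vehicle libraries. Without replicate 6 it was 21.6% in diabetic PMX-53 and 9.55% in non-diabetic PMX-53 libraries. Diabetic PMX-53 replicate 6 was the highest of its group for 15 of the 17 genes and the highest of all 24 libraries for 9. Diabetic vehicle replicate 2 was the highest of its group for 10 of the 17, whereas replicates 1 and 6 were the lowest for 9 and 6.

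The 13 genes of the helicase, the clamp and nucleotide supply varied less between libraries in their sum. They summed to 82.6 to 94.1 CPM in diabetic PMX-53, 82.0 to 95.3 CPM in diabetic vehicle, 80.8 to 88.8 CPM in non-diabetic PMX-53 and 82.6 to 89.4 CPM in non-diabetic vehicle libraries. All 4 groups overlapped, and the coefficients of variation were 2.71% to 5.80%. The sums are led by Pcna, Mcm6, Mcm7 and Tyms, the most abundant of the 13.

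**Figure D5:**
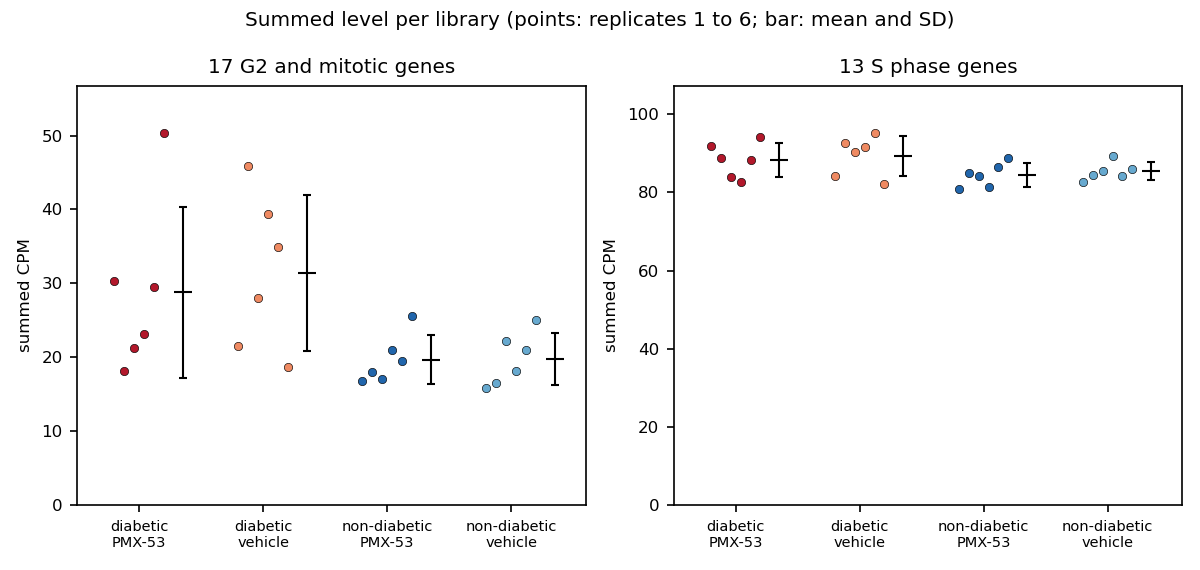
Summed CPM per library of the 17 genes of G2 and mitosis (left) and of the 13 S phase genes (right) in the 4 groups of 6 libraries (points, replicates 1 to 6 from left to right, with mean and SD beside them). The mitotic sums of diabetic libraries spread from 18.2 to 50.4 CPM, whereas the S phase sums of all groups lie between 80.8 and 95.3 CPM.

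Other genes of the same pathways were read from 4 lists of 122 genes. Of 33 tested genes of mitosis outside the 34, 11 were higher with diabetes on vehicle and 1 was lower, with a median log2 fold change of 0.50. The kinetochore gene Spc25 (1.21 ± 0.14, edgeR adjusted p = 2.44e-07), the cytokinesis gene Anln (1.08 ± 0.19, adjusted p = 7.67e-05) and the centrosome kinase gene Nek2 (0.71 ± 0.15, adjusted p = 4.67e-04) rose, and the kinesin gene Kif20b fell by 1.24 ± 0.28 (adjusted p = 0.00123) on the log2 scale. Of 44 tested replication genes, 10 were higher and 2 lower, with a median of 0.05, among them the chromatin assembly gene Chaf1b, which was higher (1.77 ± 0.27, edgeR adjusted p = 1.07e-05). The shares called in either direction, 36.4% of the mitosis genes and 27.3% of the replication genes, were below the 40.3% of all genes. By direction, 20.4% of all genes were higher and 19.9% lower. With PMX-53 in diabetic mice, Spc25 (-1.27 ± 0.14, adjusted p = 6.40e-07), Anln (-0.82 ± 0.19, adjusted p = 0.00195) and Chaf1b (-1.07 ± 0.25, adjusted p = 0.00221) were lower. That comparison called 3 of 33 mitosis genes lower and 0 higher, and 2 of 44 replication genes in each direction. These were 9.09% of either list, against 27.3% of all genes tested. On PMX-53, diabetes called 2 mitosis genes, Nek2 and Hmmr, and 6 replication genes higher and 0 of either list lower. The shares there were 6.06% and 13.6%, against 10% of all genes.

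The D-type cyclins went apart from each other. Ccnd3, the gene of cyclin D3, was higher with diabetes on vehicle (log2 fold change 0.58 ± 0.05, edgeR adjusted p = 1.99e-09) and lower in diabetic mice on PMX-53 than on vehicle (-0.39 ± 0.05, adjusted p = 2.62e-06), whereas with diabetes on PMX-53 it did not pass (0.08 ± 0.05, adjusted p = 0.30). Ccnd2 was lower with diabetes on vehicle (-0.36 ± 0.12, adjusted p = 0.0163) and higher in diabetic mice on PMX-53 than on vehicle (0.32 ± 0.12, adjusted p = 0.0433), and with diabetes on PMX-53 its -0.19 ± 0.11 did not pass (adjusted p = 0.331). Among 20 tested G1 cyclins, kinases and E2F factors, 3 were higher and 4 lower with diabetes on vehicle, and E2f5, E2f6 and E2f2 were among the lower ones. Of 9 tested CDK inhibitors and pocket proteins, 4 were higher and 0 lower. The shares called, 35% of the G1 list and 44.4% of the inhibitor list, were near the 40.3% of all genes. The inhibitor gene Cdkn1a, which encodes p21 and halts the cycle, lay at 27.2 to 36.9 CPM in diabetic PMX-53, 27.9 to 51.0 CPM in diabetic vehicle, 2.37 to 8.0 CPM in non-diabetic PMX-53 and 2.32 to 5.56 CPM in non-diabetic vehicle libraries. It was higher with diabetes on PMX-53 as well (log2 fold change 2.79 ± 0.22, edgeR adjusted p = 2.76e-08), and Rb1, the retinoblastoma gene, was higher both on vehicle (0.49 ± 0.06, adjusted p = 1.36e-07) and on PMX-53 (0.24 ± 0.06, adjusted p = 0.00734).

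Markers of other cells that could cycle in the cortex moved with some of these groups. The 6 injured tubule markers summed to 539 to 814 CPM in diabetic PMX-53, 529 to 2549 CPM in diabetic vehicle, 270 to 416 CPM in non-diabetic PMX-53 and 259 to 416 CPM in non-diabetic vehicle libraries, and 4 of 6 were called higher with diabetes on vehicle, 1 higher with diabetes on PMX-53 and 5 lower with PMX-53 in diabetic mice. The 7 macrophage markers summed to 50.1 to 89.1 CPM in diabetic PMX-53, 60.7 to 80.4 CPM in diabetic vehicle, 58.6 to 85.9 CPM in non-diabetic PMX-53 and 63.3 to 96.5 CPM in non-diabetic vehicle libraries, with 1 called higher and 1 lower with diabetes on vehicle. Markers of T and NK cells summed to 2.33 to 3.96 CPM in diabetic PMX-53 and 0.952 to 1.98 CPM in diabetic vehicle libraries. In non-diabetic libraries they summed to 2.66 to 4.39 CPM on PMX-53 and 1.95 to 3.46 CPM on vehicle. Those of neutrophils summed to at most 5.78 CPM. Of 3 tested B and plasma cell markers, 2 were lower with diabetes on vehicle, and of 5 red cell precursor markers, 4 were. All 5 collecting duct markers were higher with diabetes on vehicle. With PMX-53 in diabetic mice, 1 of 2 tested T and NK cell markers and 2 of 3 B and plasma cell markers were higher. In that comparison 3 of 5 red cell precursor markers were higher, 1 of 5 collecting duct markers was lower, and 0 of 7 macrophage markers were called. Over all genes tested, 40.3% were called with diabetes on vehicle, 10% with diabetes on PMX-53 and 27.3% with PMX-53 in diabetic mice. In diabetic PMX-53 replicate 6, the library with the most mitotic RNA, injured tubule markers summed to 814 CPM, the highest of its group, and macrophage markers to 65.6 CPM. In diabetic vehicle libraries the order differed. Replicate 1 had 2442 CPM of injured tubule markers and a mitotic sum of 21.5 CPM, the second lowest, and replicate 4 had 529 CPM, the lowest, and a mitotic sum of 39.4 CPM, the second highest. The part of these cells in the mitotic genes was not tested.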

How the data were processed

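Renal cortex RNA of 24 mice was sequenced in 4 groups of 6. The submitters' processing notes name bcl2fastq 2.20.0.422 for read conversion and STAR on GRCm38. The sources used here name neither an annotation nor a counter, and whether counting used strand is not given in them. The deposited table holds read counts per gene as whole numbers without normalization, per the file headers and values. Without a known strand setting, overlapping genes may share reads. In the annotation used here (GENCODE for GRCm38), 12 of the 34 genes share exon bases with another gene.

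In a chi-square test over genes, the 60 pairs of libraries within groups all differed by more than sampling noise (5.43 or more per degree of freedom). The tests ran in edgeR 4.0.16 (R 4.3.3). Alternatives used limma 3.58.1 and DESeq2 1.42.0, and matplotlib 3.10.9 on Python 3.11.15 drew the figures. The default expression filter of edgeR kept 15808 genes. Libraries were scaled by TMM (trimmed mean of M-values), and 1 robust quasi-likelihood model with a coefficient for each group took all 24. P-values of the F test were adjusted over all tested genes by Benjamini-Hochberg, and 0.05 was the threshold. The standard error is the log2 fold change over the square root of F, and 95% intervals use it. Levels in CPM were computed here from the deposited counts and the TMM-scaled library sizes. The scripts were tested on simulated counts.

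The 34 genes and all lists were chosen with earlier results of these data known. Full values are given for genes called in any comparison and for Mki67, Top2a, Ccnd1, Cdk1, Pcna, Mcm2 and Cdc20. Of the other pathway lists, up to 4 genes with the smallest p per comparison are named, and Cdkn1a, except that 1 gene is not reported here. Outside this rule, Ccnd2, Cdc23, Elovl1, Exosc9, Gse1, LTO1, Afmid, Nnt, Ide and Kap were picked with their values in view. The alternatives changed the scaling, the filter or the tool, added a replicate block, removed 391 genes of mitochondrial or ribosomal RNA (20.1% to 31.9% of counts), fitted only the groups compared, thinned libraries to 1 total, or left out each library.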

Additional observations from a re-analysis of the deposited data

Results flagged for a closer look

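The effect of PMX-53 on Ccnd1, the cyclin D1 gene, differed between diabetic and non-diabetic mice by 0.81 ± 0.20 on the log2 scale (edgeR interaction, adjusted p = 0.0138). It was higher with PMX-53 in 6 of 6 diabetic libraries than the diabetic vehicle mean. The diabetic vehicle libraries, which stood apart at Nnt and Ide, enter this difference, so what sets them apart cannot be told apart from PMX-53.

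Single libraries stood far from the other 5 of their group in 11 of 168 groups of values examined. The rule was a Dixon test on the gap to the nearest library over the range. For independent normal values it gives about 1 in 20 (8.4), but these values are not independent. The sums hold genes that were also examined singly, and 1 library can stand out at many genes. The 8.4 is therefore no measure of chance here. Of the 11, diabetic PMX-53 replicate 6 accounted for 6. It held 1.92 CPM of Cdk1 against 0.290 to 0.860 in the others, 3.59 CPM of Cenpe against 1.66 to 2.15, 4.07 CPM of Kif20a against 0.908 to 1.94, and 1.12 CPM of Ube2c against 0.124 to 0.491. Its Mcm5 stood at 4.39 CPM against 2.59 to 3.05, and its 10 chromosome segregation genes summed to 40.4 CPM against 14.2 to 24.0.

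In non-diabetic PMX-53 libraries, replicate 6 held 0.993 CPM of Aurkb against 0.174 to 0.42 in the others, and its 9 licensing and helicase genes summed to 54.3 CPM against 49.3 to 51.0. Replicate 3 held 0.926 CPM of Cdk1 against 0.258 to 0.468, and replicate 1 held 0.362 CPM of Ccne1 against 0.110 to 0.184. In non-diabetic vehicle libraries, replicate 4 held 6.83 CPM of Mcm4 against 5.70 to 6.10.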

How the results depend on the processing

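No called gene among the 34, nor Cdkn1a, reversed under any alternative. The median of the 29 tested genes did, without a call attached. With PMX-53 in diabetic mice it was -0.11 (7 positive, 22 negative) and, without scaling beyond library totals, 0.017 (15 positive, 14 negative), and with PMX-53 in non-diabetic mice it was -0.022 and ranged from -0.087 to 0.034. Without scaling beyond library totals, the median of all genes shifted to -0.095 with diabetes on vehicle and to 0.119 with PMX-53 in diabetic mice on the log2 scale. With PMX-53 in diabetic mice, 2 of the 34 genes (Ccnd1 and Mcm2) were then higher and 0 lower, and 3586 of all genes were higher and 924 lower, so the split moved. All genes called were then 1802 higher with diabetes on vehicle, 572 higher and 299 lower with diabetes on PMX-53, and 1059 higher and 277 lower in the interaction. Without a low-count filter, 1 gene was lower with PMX-53 in non-diabetic mice and 468 were higher in the interaction. Thinned to the smallest total, 26 of the 34 were tested, 8 were higher with diabetes on vehicle and 1 on PMX-53. With limma voom and sample weights, diabetes on PMX-53 called 1349 genes higher and 1211 lower, and the interaction 1177 higher. DESeq2 called 1 gene higher and 3 lower with PMX-53 in non-diabetic mice, and 5 of the 34 higher with diabetes on PMX-53. The cause of these shifts was not tested.

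Replicate numbers did not pair the libraries (36 same-number pairs, correlation of deviations -0.124 to 0.131, 0 libraries best with their own number). With the number as a replicate block, 12 of the 34 were higher and 1 lower with diabetes on vehicle, 1 higher and 3 lower with PMX-53 in diabetic mice, and 2 higher with diabetes on PMX-53. Ccna2 (adjusted p = 0.0724) and, on PMX-53, Cenpf (adjusted p = 0.0541) lost their calls.

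With 1 library left out at a time, the genes among the 34 higher with diabetes on vehicle numbered 9 (without diabetic vehicle replicate 2) to 15, and 1 was lower throughout. For PMX-53 in diabetic mice 1 was higher throughout and 1 (without diabetic PMX-53 replicate 1, 3 or 4, or diabetic vehicle replicate 4 or 5) to 3 were lower. On PMX-53, diabetes called 2 to 5 (without diabetic PMX-53 replicate 2) higher. All genes called ranged over 2964 to 3426 higher and 2679 to 3370 lower with diabetes on vehicle, 1662 to 2480 higher and 1811 to 2361 lower with PMX-53 in diabetic mice, 633 to 955 higher and 501 to 853 lower with diabetes on PMX-53, and 455 to 1199 higher and 567 to 1043 lower in the interaction, the last with the highest counts without diabetic vehicle replicate 4.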
